A study of Mus musculus with 8 samples.

Results

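The 10 genes described here are Slc7a11, Gclc, Gclm, Gss, Nfe2l2, Keap1, Txnrd1, Srxn1, Hmox1 and Nqo1, which serve cystine uptake, glutathione synthesis and the antioxidant programme of the transcription factor NRF2. They were chosen by name for these roles, without a threshold on their values, and are 10 of the 55536 genes in each count file and of 21425 protein-coding genes. RNA-seq and ribosome profiling were carried out on KRPC-A cells, a PDAC-like pancreatic tumour line from genetically engineered mice on a C57BL/6 background. The groups were Gcn2 KO cells in leucine-free medium, Gcn2 KO cells in amino-acid-replete medium, Gcn2 WT cells in leucine-free medium and Gcn2 WT cells in replete medium, each after 1 h in its medium. Each of the 8 combinations of genotype, medium and assay is 1 library, so there were no replicates. How the KO was made, and whether either line is a clone or a pool, is not given in the sources used here.

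Cystine enters cells through the antiporter of SLC7A11 and SLC3A2 and is reduced to cysteine, which the GCLC and GCLM ligase and then GSS build into glutathione. KEAP1 holds NRF2, the product of Nfe2l2, at a ubiquitin ligase in unstressed cells, and oxidants release NRF2 to bind antioxidant response elements of genes such as Gclc, Gclm, Txnrd1, Srxn1, Hmox1 and Nqo1. GCN2 is a kinase that responds to uncharged transfer RNA by phosphorylating eIF2alpha, which favours translation of the transcription factor ATF4. Slc7a11 is a known target of both ATF4 and NRF2. Ribosome profiling counts the pieces of mRNA that a ribosome covers, called footprints, and so reports how much each mRNA is occupied by ribosomes. Protein output was not measured in these libraries.

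The proximal promoters of Slc7a11 and Srxn1 are shown because their NRF2-type and ATF4-type motifs differ and because the RNA of these genes had the largest leucine responses of the 10 in KO cells. The sequences are from RefSeq on GRCm38.p6, where 8 of the 10 genes matched an entry, and end just before the annotated first exon. They are written in the direction of transcription. Capitals mark every match, on either strand, to TTGCATCA, a form of the C/EBP-ATF response element (CARE) bound by ATF4, in Slc7a11 (chr3:50443615-50443863, minus strand). In Srxn1 (chr2:152105274-152105515, plus strand) they mark matches to TGANTCA, the AP-1 motif, and TGANTCAGC, a MAF-type extension of it. The motifs were chosen after the sequences were seen.
Slc7a11: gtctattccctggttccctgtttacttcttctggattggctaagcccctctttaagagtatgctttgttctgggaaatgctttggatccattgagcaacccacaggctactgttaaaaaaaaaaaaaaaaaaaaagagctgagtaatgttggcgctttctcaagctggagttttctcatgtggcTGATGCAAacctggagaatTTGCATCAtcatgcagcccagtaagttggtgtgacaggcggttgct
Srxn1: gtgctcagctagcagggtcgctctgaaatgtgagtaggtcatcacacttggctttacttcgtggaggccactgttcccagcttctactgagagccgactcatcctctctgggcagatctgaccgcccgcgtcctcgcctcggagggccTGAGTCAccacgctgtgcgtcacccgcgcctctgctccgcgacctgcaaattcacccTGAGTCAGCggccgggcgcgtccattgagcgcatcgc
Counted back from the last printed base, which is base 1, the CARE occurred at bases 65 to 58 and again at bases 46 to 39 in Slc7a11. Motifs were searched in the 250 bases before each RefSeq start, and the printed sequences are those windows without the last 1 base in Slc7a11 and the last 8 bases in Srxn1, which lie in an exon of the Ensembl gene models. Of 32851 such windows, 260 held the CARE at least once (0.791%). Only 2 held it more than once, those of Slc7a11 and Chchd10. The Srxn1 matches, counted the same way, lay at bases 94 to 88 and 37 to 31, and the MAF-type motif at bases 37 to 29 contains the second of them. TGANTCA was found in 6.75% of all promoters and TGANTCAGC in 1.02%. The core of the antioxidant response element, TGACNNNGC, was found in 10.2% of promoters, and among the 8 matched genes in Gclm, Nfe2l2 and 1 promoter of Txnrd1. A match is a description of letters and not a binding site or a cause.

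Read depth was 31363754 and 37944264 protein-coding counts in KO leucine-free and KO replete RNA-seq, and 40792821 and 41920840 in WT leucine-free and WT replete RNA-seq. The footprint libraries held 4168476, 6478334, 2425740 and 9252255 protein-coding counts in the same order, fewest in WT leucine-free cells. Levels are normalised counts per 1000000 protein-coding reads (CPM) and are relative within a library. All ranges in brackets are 95% intervals for counting error only, computed from the counts, and no spread between cultures could be estimated. They treat reads as independent. Reads amplified by PCR are not independent molecules, so the intervals may be too narrow even for counting error. Eif2ak4, the gene of GCN2, had 16.7 and 13.6 CPM in KO leucine-free and KO replete RNA-seq, against 69.7 and 85.7 CPM in the WT libraries. Footprints of Atf4 had a log2 ratio of leucine-free over replete medium of 0.09 (-0.04 to 0.21) in KO cells and 1.61 (1.51 to 1.72) in WT cells. In replete medium KO over WT was 0.84 (0.80 to 0.87) in Atf4 RNA and 0.21 (0.10 to 0.32) in its footprints. In leucine-free medium it was 0.12 (0.09 to 0.15) in RNA and -1.31 (-1.44 to -1.19) in footprints.

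As a check of the labelled cell type, 9 of 10 duct and epithelial markers had RNA reads, led by Sox9 and Krt18, while Epcam was at 0 in all 4 libraries. The summed level of these markers was 1106 and 487 CPM in KO leucine-free and KO replete cells, against 336 and 248 CPM in WT leucine-free and WT replete cells. Most of each sum was Sox9 and Krt18. Krt19 and Muc1 had at most 1.03 CPM in any library. Cftr was lower in KO, with 1.64 and 2.45 CPM in KO leucine-free and KO replete cells against 2.80 and 3.14 CPM in the WT libraries. Of 8 fibroblast and mesenchyme markers 5 to 7 had reads, summing to 1273, 1244, 1631 and 1290 CPM in the same order. Most of each sum was Vim, and Lum was at 0 in all 4. Single markers of this list differed between the genotypes in both directions. Acta2 had 127.9 and 99.56 CPM in KO leucine-free and KO replete cells, against 28.08 and 23.13 CPM in the WT libraries. Col1a1 had 5.995 and 4.593 CPM in KO against 17.13 and 15.04 CPM in WT cells. In both media Pdgfrb was also higher in KO, and Vim and Col1a2 were also lower. The 7 acinar, 6 immune and 3 endothelial markers each summed to between 0 and 0.452 CPM in every library. Their part in the results below was not tested, and the genotype cannot be told apart from any other difference between the KO and WT cultures.

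Per kilobase of exon the 10 mRNAs covered a wide span. Averaged over the 4 RNA-seq libraries, Txnrd1 (36.4 CPM per kb), Nfe2l2 (30.5), Gclc (27.3) and Gclm (26.9) lay above the 82nd percentile of the 10817 measured protein-coding genes, those with a mean count of at least 30. Srxn1 (12.2), Keap1 (8.50) and Hmox1 (6.64) lay at percentiles 46.1 to 62.9, around the median of 7.59 CPM per kb. Nqo1 (2.66), Gss (1.82) and Slc7a11 (0.416) were the lowest, and Slc7a11 stood at the 4.88th percentile. The length used, here and for footprints, is that of all annotated exons, 13922 bases for Slc7a11 and 1553 for Nqo1. These ranks therefore depend on the annotation. Before division by length, RNA was 3.08 to 7.97 CPM for Slc7a11 and 3.69 to 4.57 CPM for Nqo1. In footprints Nfe2l2 led with 56.7 CPM per kb, followed by Txnrd1 with 43.1 and Gclm with 30.7. Slc7a11 was last with 0.272 CPM per kb, and its mean count of 20.5 left it below the minimum, so 10 of the 10 genes were measured in RNA-seq and 9 in footprints.

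**Figure D1:**
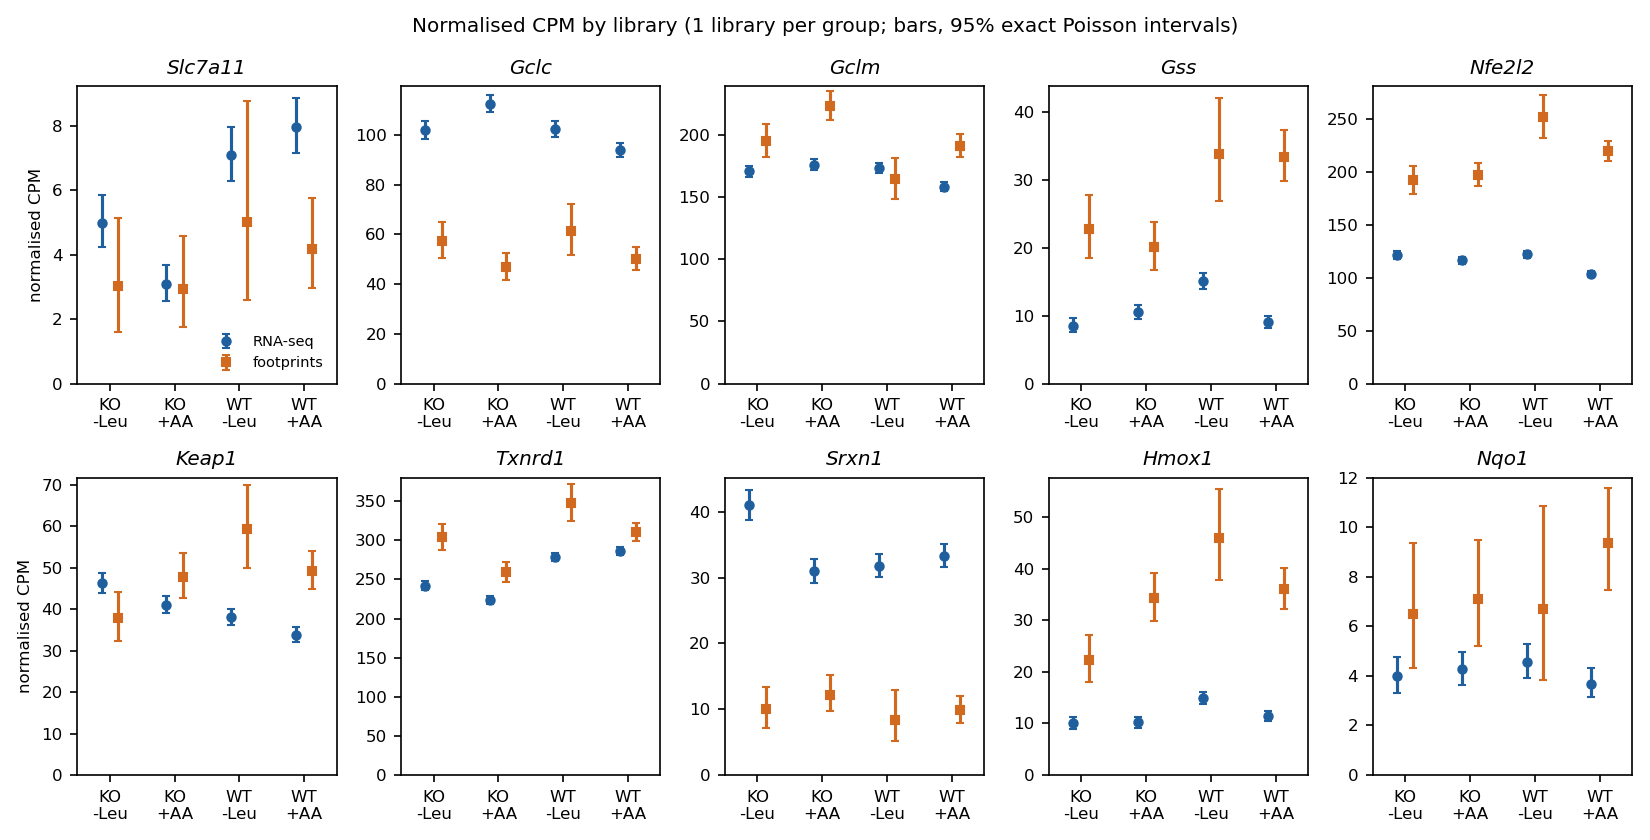
Normalised CPM (y axes, each from 0) of the 10 genes in the 4 groups (x axes), from RNA-seq (circles) and footprints (squares), with 1 library per point and 95% exact Poisson intervals for counting error. The RNA level of Slc7a11 is lowest in KO replete cells at 3.08 CPM, Gss RNA is highest in WT leucine-free cells at 15.02 CPM and Hmox1 footprints are lowest in KO leucine-free cells at 22.3 CPM. KO -Leu and WT -Leu are leucine-free medium, and +AA is replete medium.

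A gene was counted as past 2-fold when its log2 ratio had a size of 1 or more and an interval that excluded 0. In RNA-seq 0 of 10 genes passed for leucine-free against replete medium in KO cells, where 3.17% of all measured genes did, and 0 of 10 in WT cells, where 1.70% did. For KO against WT cells 0 of 10 passed in leucine-free medium (8.38% of all measured genes) and 1 of 10, Slc7a11, in replete medium (6.86%). The KO minus WT difference of the leucine responses passed for 1 of 10, Gss (4.66%). In footprints 0 of 9 genes passed for leucine in KO cells (2.14% of all), 0 of 9 for leucine in WT cells (1.49%) and 0 of 9 for KO against WT in replete medium (2.99%). Hmox1 was the 1 of 9 past 2-fold for KO against WT in leucine-free medium (7.26%), and 0 of 9 passed for the difference of leucine responses (4.68%). Counts of 0 or 1 in 9 or 10 genes are near these background shares. All 5 comparisons of an assay draw on the same 4 libraries, so their values are not independent of each other.

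The median log2 ratio over the 10 genes in RNA-seq was 0.02 for leucine in KO cells and 0.15 for leucine in WT cells, beside -0.003 and 0.005 over all measured genes. For KO against WT cells it was -0.11 in leucine-free and 0.16 in replete medium, beside 0.01 and 0.00 over all genes. In footprints the medians were -0.13 and 0.16 for leucine in KO and in WT cells, and -0.20 and -0.10 for KO against WT in leucine-free and replete medium. The medians over all footprint genes in these 4 comparisons were between -0.006 and 0.002.

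**Figure D2:**
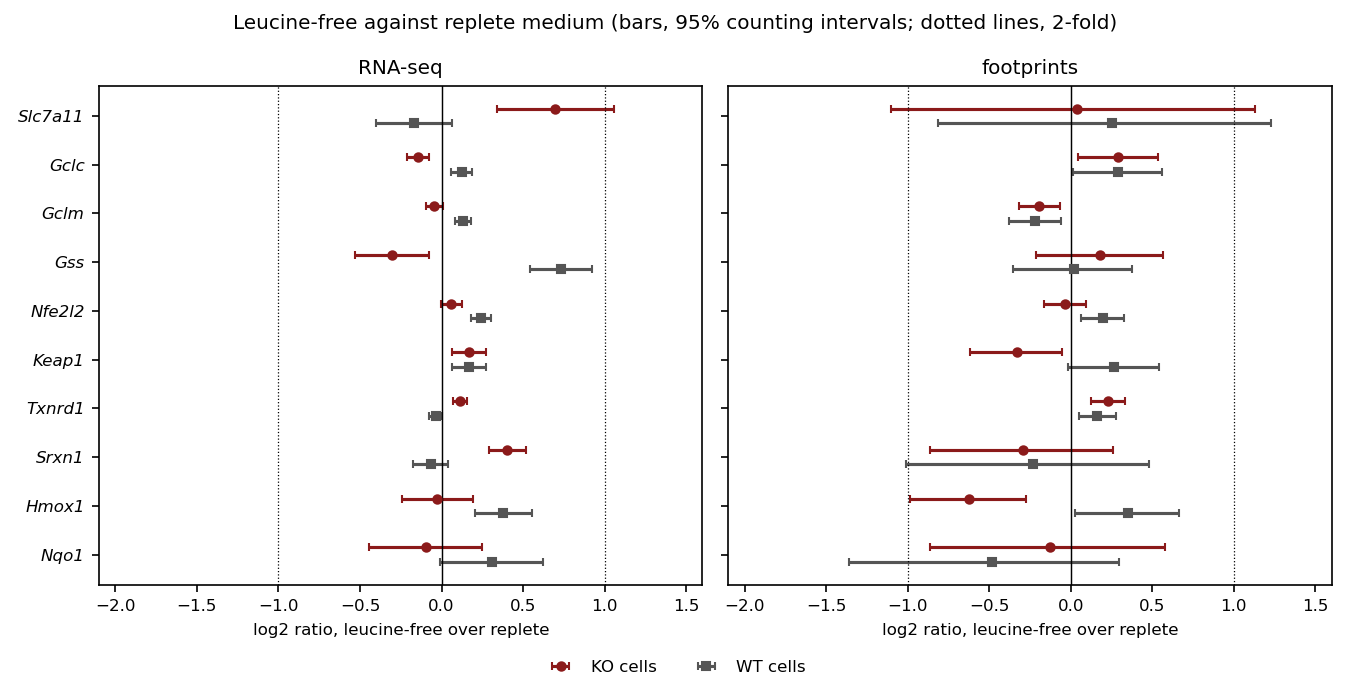
Log2 ratio of leucine-free over replete medium (x axes) for the 10 genes (y axis) in KO cells (circles) and WT cells (squares), in RNA-seq at left and footprints at right, with 95% counting intervals and dotted lines at 2-fold. In RNA Slc7a11 lies at 0.70 in KO and -0.17 in WT cells and Gss at -0.30 in KO and 0.73 in WT cells, and in footprints Hmox1 lies at -0.62 in KO and 0.35 in WT cells.

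Slc7a11 encodes xCT, the cystine-carrying chain of the cystine and glutamate antiporter, and lies on chromosome 3 (49892526 to 50443614, minus strand). Its RNA fell in KO relative to WT cells in replete medium and was the one member to pass 2-fold in that comparison. The RNA count was 155 in KO leucine-free and 118 in KO replete cells, against 289 in WT leucine-free and 335 in WT replete cells, or 4.996, 3.08, 7.09 and 7.97 CPM. Both KO libraries were below both WT libraries. In replete medium the KO level was 38.7% of the WT level, a log2 ratio of -1.37 (-1.69 to -1.07), at the 1.20th percentile of all measured genes. In bulk RNA, fewer cells that express a gene and less RNA per cell cannot be told apart. In leucine-free medium the log2 ratio of KO over WT was -0.51 (-0.80 to -0.22), which is under 2-fold.

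The gap between the genotypes was narrower without leucine, where the KO level was above that in replete medium. Leucine-free over replete medium gave 0.70 (0.34 to 1.06) in KO cells and -0.17 (-0.40 to 0.06) in WT cells, and the KO minus WT difference was 0.86 (0.45 to 1.28). None of the 3 reached 2-fold. Footprint counts of Slc7a11 were 13 and 19 in KO leucine-free and KO replete cells, against 12 and 38 in the WT libraries. At these counts a difference was not detectable. The log2 ratio of KO over WT was -0.72 (-1.98 to 0.53) in leucine-free and -0.50 (-1.39 to 0.32) in replete medium.

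The partner chain SLC3A2, which also serves other amino acid antiporters, had its highest RNA level in WT leucine-free cells. Slc3a2 RNA was 163 and 164 CPM in KO leucine-free and KO replete cells, against 219 and 171 CPM in WT leucine-free and WT replete cells. The ratio of Slc3a2 to Slc7a11 RNA counts within a library, which needs no scaling, was 32.7 (27.9 to 38.4) and 53.3 (44.4 to 63.9) in KO leucine-free and KO replete cells. It was 30.9 (27.5 to 34.7) and 21.4 (19.2 to 23.9) in the WT libraries. The ratio was thus highest in KO replete cells, and the intervals of KO and WT libraries overlapped in leucine-free medium. Footprints of Slc3a2 gave a log2 ratio of KO over WT of -0.95 (-1.05 to -0.86) in leucine-free medium, just under 2-fold.

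Genes among the 5 nearest to Slc7a11 over the 8 libraries, by the Euclidean distance between log2 CPM values centred within each assay, were Idh3g, Chst12, Sars and Rit1. Their distances were 0.356 to 0.423, against a median of 1.33 over 9100 genes. In KO over WT replete RNA their log2 ratios were -1.09, -1.02, -1.05 and -0.83. These genes were picked on the same 8 libraries, so ratios on the side of Slc7a11 follow from the choice. Slc7a11 footprints entered this distance with few counts.

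Gclc encodes the catalytic chain of glutamate-cysteine ligase, the rate-limiting enzyme of glutathione synthesis (chromosome 9, 77754535 to 77794485, plus strand). Its RNA was 102 and 113 CPM in KO leucine-free and KO replete cells, against 102 and 94.0 CPM in WT leucine-free and WT replete cells. The highest library was KO replete and the lowest WT replete, a log2 ratio of 0.26 (0.20 to 0.32). The leucine responses had opposite signs, -0.14 (-0.21 to -0.08) in KO and 0.12 (0.06 to 0.19) in WT cells. Footprints were 57.3 and 46.8 CPM in KO leucine-free and KO replete cells, against 61.4 and 50.2 CPM in the WT libraries. They were higher without leucine in both genotypes, by 0.29 (0.04 to 0.54) in KO and 0.29 (0.01 to 0.56) in WT cells on the log2 scale.

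Gclm encodes the modifier chain, which lowers the ligase's feedback inhibition by glutathione (chromosome 3, 122245557 to 122270732, plus strand). Its RNA was 170 and 176 CPM in KO leucine-free and KO replete cells, against 173 and 158 CPM in the WT libraries. Its footprints were 195 and 223 CPM in KO leucine-free and KO replete cells, against 164 and 191 CPM in WT leucine-free and WT replete cells. Here the leucine-free library was the lower of each pair, with log2 ratios of -0.19 (-0.32 to -0.07) in KO and -0.22 (-0.38 to -0.06) in WT cells. KO exceeded WT footprints by 0.25 (0.08 to 0.43) in leucine-free and 0.22 (0.12 to 0.32) in replete medium. Of the Gclm exons 4.71% are shared with Gm17494 and Gm6061, and Gm17494 held 244, 273, 269 and 530 footprints in KO leucine-free, KO replete, WT leucine-free and WT replete cells. Reads in the shared bases are counted for neither gene.

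Footprints of the chains of the ligase thus had leucine ratios of opposite sign, in both genotypes and under 2-fold. The ratio of Gclm to Gclc footprint counts was 3.41 (2.96 to 3.93) and 4.76 (4.21 to 5.39) in KO leucine-free and KO replete cells. In WT cells it was 2.67 (2.21 to 3.23) without leucine and 3.81 (3.44 to 4.23) with it. The log2 change without leucine was -0.48 (-0.75 to -0.21) in KO and -0.51 (-0.82 to -0.20) in WT cells, a difference between genotypes of 0.03 (-0.38 to 0.44). In RNA the same ratio was between 1.56 and 1.69, with log2 changes of 0.10 (0.01 to 0.18) in KO and 0.01 (-0.07 to 0.09) in WT cells. This ratio was chosen after its values were seen.

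**Figure D3:**
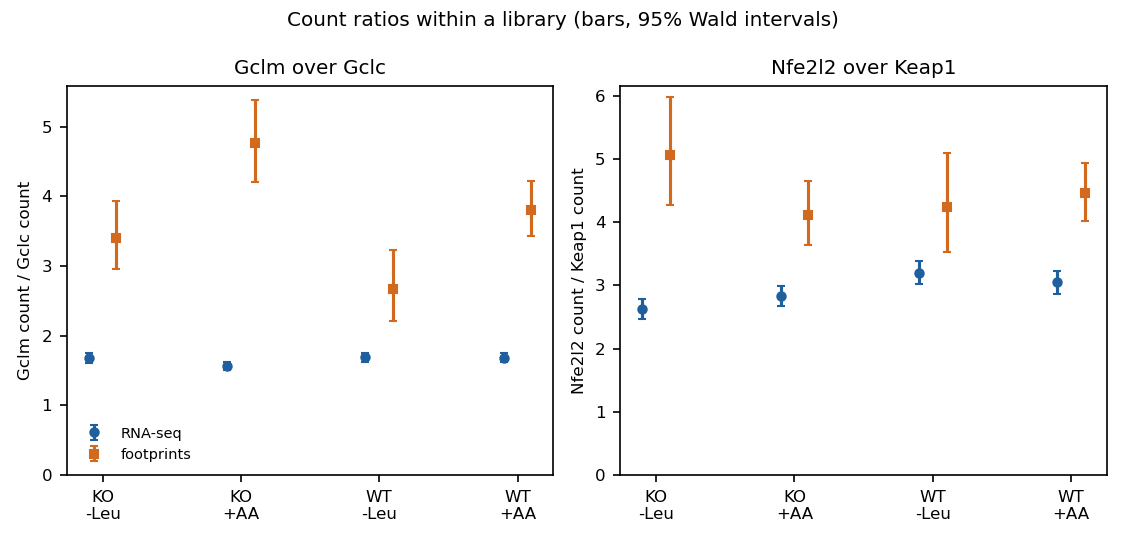
Count ratios within each library (y axes, from 0) for Gclm over Gclc at left and Nfe2l2 over Keap1 at right, in the 4 groups (x axes), from RNA-seq (circles) and footprints (squares), with 95% Wald intervals from the counts. The Gclm over Gclc footprint ratio is lower without leucine in both genotypes, 3.41 against 4.76 in KO cells and 2.67 against 3.81 in WT cells, while the RNA ratio lies between 1.56 and 1.69 in all 4 libraries.

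Gss encodes glutathione synthetase, which adds glycine in the last step (chromosome 2, 155563181 to 155592810, minus strand). Its leucine response in RNA differed between the genotypes past 2-fold. RNA counts were 264 and 402 in KO leucine-free and KO replete cells, against 612 and 380 in WT leucine-free and WT replete cells, or 8.51, 10.5, 15.02 and 9.04 CPM. The WT leucine-free library was the highest and the KO leucine-free library the lowest. The log2 ratio of leucine-free over replete medium was -0.30 (-0.53 to -0.07) in KO and 0.73 (0.55 to 0.92) in WT cells, and the KO minus WT difference was -1.03 (-1.32 to -0.74). KO over WT was -0.82 (-1.03 to -0.61) in leucine-free and 0.21 (0.01 to 0.42) in replete medium.

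Gss footprints had another order. They were 22.7 and 20.1 CPM in KO leucine-free and KO replete cells, against 33.9 and 33.4 CPM in WT leucine-free and WT replete cells, so both KO libraries were lower. The log2 ratios of KO over WT were -0.57 (-1.02 to -0.13) in leucine-free and -0.73 (-1.04 to -0.43) in replete medium, and the leucine responses were 0.18 (-0.22 to 0.57) in KO and 0.02 (-0.35 to 0.38) in WT cells. Of the Gss exons 15.4% are shared with Acss2, Gssos1 and Gssos2. Gssos1 held 0 reads and Gssos2 at most 4 in any library, and Acss2 RNA counts were 344 and 498 in KO leucine-free and KO replete cells, against 492 and 504 in the WT libraries.

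Nfe2l2 encodes NRF2 itself (chromosome 2, 75675513 to 75704641, minus strand). Its RNA was 122 and 117 CPM in KO leucine-free and KO replete cells, against 122 and 103 CPM in WT leucine-free and WT replete cells, the last being lowest. Its leucine response in RNA was 0.06 (-0.002 to 0.12) in KO and 0.24 (0.18 to 0.30) in WT cells. Footprints were 192 and 197 CPM in KO leucine-free and KO replete cells, against 252 and 220 CPM in the WT libraries, so both KO libraries were lower. The log2 ratio of KO over WT footprints was -0.39 (-0.54 to -0.24) in leucine-free and -0.16 (-0.26 to -0.05) in replete medium. These are differences of under 2-fold.

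Keap1 encodes the adaptor through which NRF2 is degraded (chromosome 9, 21229730 to 21239361, minus strand). Its RNA was 46.3 and 41.2 CPM in KO leucine-free and KO replete cells, against 38.2 and 33.9 CPM in the WT libraries. Both KO libraries were above both WT libraries, with log2 ratios of 0.28 (0.18 to 0.38) in each medium. Footprints showed another order, 38.0 and 47.9 CPM in KO leucine-free and KO replete cells against 59.3 and 49.3 CPM in WT leucine-free and WT replete cells. The KO leucine-free library was lowest, at a log2 ratio to WT of -0.64 (-0.98 to -0.31). The leucine responses of its footprints were -0.33 (-0.62 to -0.06) in KO and 0.27 (-0.02 to 0.54) in WT cells, a difference of -0.60 (-0.99 to -0.22). Of the Keap1 exons 10.9% are shared with Gm16754, which held at most 27 reads in any library. The ratio of Nfe2l2 to Keap1 footprint counts was 5.06 (4.28 to 5.98) and 4.11 (3.63 to 4.66) in KO leucine-free and KO replete cells. It was 4.24 (3.53 to 5.09) and 4.45 (4.02 to 4.94) in the WT libraries, with overlapping intervals. In RNA the ratio was 2.62 and 2.83 in KO leucine-free and KO replete cells, against 3.20 and 3.045 in the WT libraries. The log2 change of this RNA ratio, KO over WT, was -0.29 (-0.41 to -0.17) in leucine-free and -0.106 (-0.225 to 0.014) in replete medium.

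**Figure D4:**
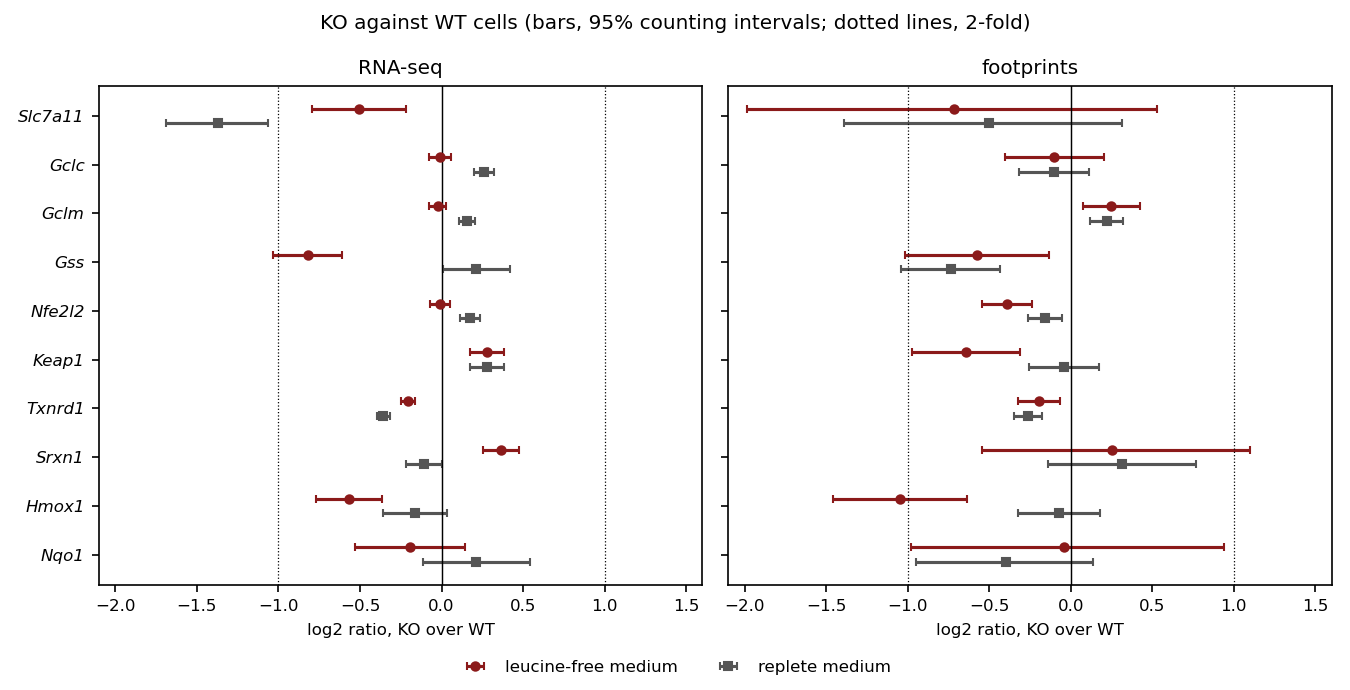
Log2 ratio of KO over WT (x axes) for the 10 genes (y axis) in leucine-free medium (circles) and replete medium (squares), in RNA-seq at left and footprints at right, with 95% counting intervals and dotted lines at 2-fold. Slc7a11 RNA in replete medium (-1.37) and Hmox1 footprints in leucine-free medium (-1.04) lie beyond the 2-fold line with intervals that exclude 0.

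Txnrd1 encodes cytosolic thioredoxin reductase and was the most abundant of the 10 mRNAs (chromosome 10, 82833951 to 82897712, plus strand). Its RNA was 242 and 224 CPM in KO leucine-free and KO replete cells, against 279 and 286 CPM in the WT libraries, so KO lay below WT in both media. The log2 ratios were -0.21 (-0.25 to -0.17) in leucine-free and -0.36 (-0.40 to -0.32) in replete medium. KO footprints likewise lay below WT, with 304 and 259 CPM in KO leucine-free and KO replete cells against 348 and 311 CPM in WT leucine-free and WT replete cells. The footprint level was higher without leucine by 0.23 (0.13 to 0.34) in KO and 0.16 (0.05 to 0.28) in WT cells on the log2 scale.

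Srxn1 encodes sulfiredoxin, which restores overoxidised peroxiredoxins (chromosome 2, 152105516 to 152111376, plus strand). Its RNA was 41.0 CPM in KO leucine-free cells and 31.0 CPM in KO replete cells, against 31.8 and 33.4 CPM in the WT libraries. The KO leucine-free library stood above the other 3. Its log2 ratio was 0.40 (0.29 to 0.52) over KO replete and 0.37 (0.25 to 0.48) over WT leucine-free cells, and the KO minus WT difference of leucine responses was 0.47 (0.31 to 0.63). Footprint counts were 43 and 79 in KO leucine-free and KO replete cells, against 20 and 89 in the WT libraries. These were 9.97, 12.2, 8.36 and 9.81 CPM with overlapping intervals.

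Hmox1 encodes haem oxygenase 1, which breaks down haem and is repressed by BACH1 (chromosome 8, 75093621 to 75100589, plus strand). Its footprints fell in KO relative to WT cells in leucine-free medium. Footprint counts were 96 and 222 in KO leucine-free and KO replete cells, against 110 and 327 in WT leucine-free and WT replete cells, or 22.3, 34.3, 46.0 and 36.1 CPM. KO leucine-free was the lowest library and WT leucine-free the highest, while the replete libraries lay close together. KO over WT was -1.04 (-1.46 to -0.64) in leucine-free and -0.07 (-0.33 to 0.18) in replete medium. With scaling by total counts in place of TMM the leucine-free value was -0.98 and no longer past 2-fold.

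The leucine responses of Hmox1 footprints were -0.62 (-0.99 to -0.27) in KO and 0.35 (0.03 to 0.67) in WT cells. Their difference was -0.97 (-1.44 to -0.51), or -1.02 and past 2-fold once a trend on exonic length was removed. Its RNA was 10.02 and 10.2 CPM in KO leucine-free and KO replete cells, against 14.9 and 11.4 CPM in WT leucine-free and WT replete cells, the WT leucine-free library being highest. KO over WT RNA was -0.57 (-0.77 to -0.37) in leucine-free and -0.16 (-0.36 to 0.03) in replete medium. The 5 genes nearest to Hmox1 over the 8 libraries were Cd24a, Ints12, Extl2, Msn and Ebf2, at distances of 0.245 to 0.298 against a median of 0.999.

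Nqo1 encodes a quinone reductase and is a common readout of NRF2 activity (chromosome 8, 107388225 to 107403206, minus strand). It was sparse here, with RNA counts of 124 and 164 in KO leucine-free and KO replete cells, against 186 and 155 in the WT libraries. These were 3.997, 4.28, 4.57 and 3.69 CPM, and the interval of each of the 5 RNA comparisons held 0. Footprint counts were 28 and 46 in KO leucine-free and KO replete cells, against 16 and 85 in the WT libraries, or 6.49, 7.11, 6.69 and 9.37 CPM. At this depth a difference in Nqo1 was not detectable in either assay alone.

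Translation efficiency was taken as the normalised footprint level over the normalised RNA level of the same group, for the 9100 genes measured in both assays. The 9 measured members differed by about an order of magnitude. Both counts cover whole exons, untranslated regions included, and the coding share of each mRNA was not corrected for. The order of genes below is therefore not a ranking of how well each coding region is translated. Hmox1 had 2.22 and 3.36 in KO leucine-free and KO replete cells, against 3.10 and 3.16 in WT leucine-free and WT replete cells. Gss had 2.67 and 1.91 in KO leucine-free and KO replete cells, against 2.25 and 3.69 in the WT libraries. Both lay above the 73rd percentile of measured genes in every library. Srxn1 was lowest, with 0.243 and 0.394 in KO leucine-free and KO replete cells, against 0.263 and 0.294 in the WT libraries, below the 17th percentile in each. Gclc was low too, with 0.562 and 0.416 in KO leucine-free and KO replete cells, against 0.6004 and 0.534 in the WT libraries. The median over measured genes was 1.00 to 1.03.

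**Figure D5:**
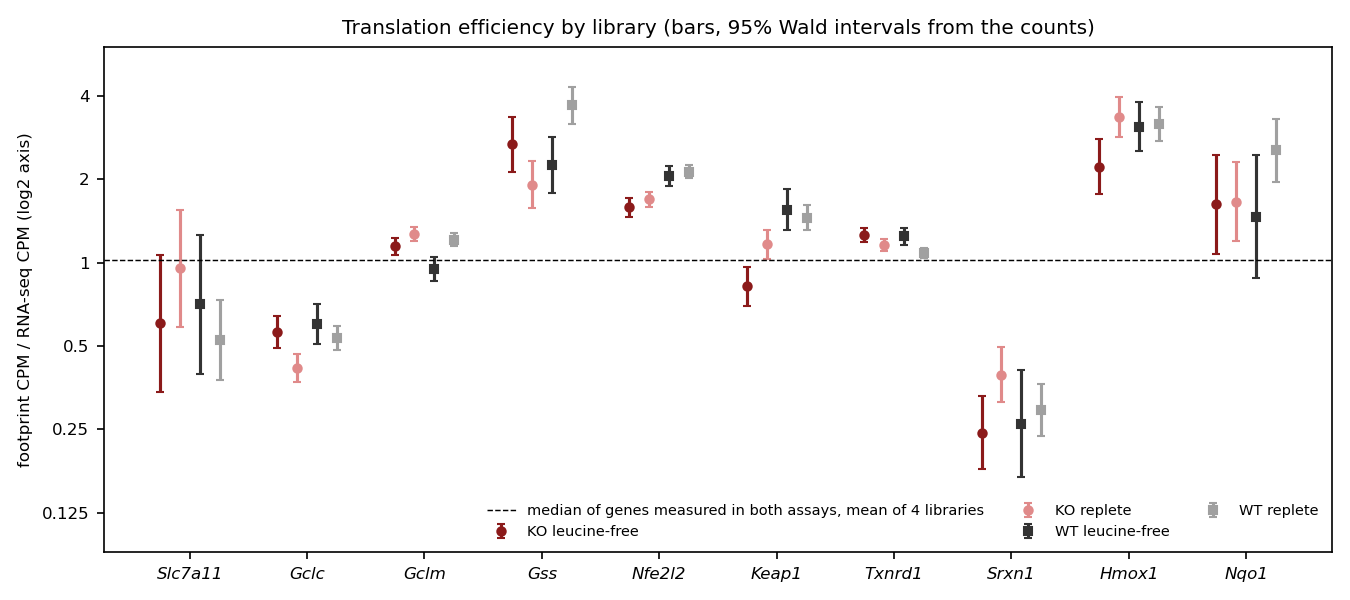
Translation efficiency (y axis, log2 scale: footprint CPM over RNA-seq CPM) of the 10 genes (x axis) in the 4 groups, with 95% Wald intervals from the counts; the dashed line is the median over 9100 genes, averaged over the 4 libraries. Srxn1 lies lowest at 0.243 to 0.394, Gss and Hmox1 highest, and Keap1 is lower in both KO libraries than in both WT libraries. Slc7a11 is drawn although its footprints are below the minimum count.

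In translation efficiency 0 of 9 genes passed 2-fold for leucine in KO cells (3.00% of all measured genes) and 0 of 9 for leucine in WT cells (2.90%). For KO against WT 0 of 9 passed in leucine-free medium (5.91%) and 0 of 9 in replete medium (1.38%), while Gss was 1 of 9 in the difference of leucine responses (7.88%). The Gss log2 ratio of leucine-free over replete medium was 0.48 (0.04 to 0.92) in KO and -0.71 (-1.11 to -0.32) in WT cells, a difference of 1.19 (0.60 to 1.78). The same difference was -1.03 in Gss RNA and 0.158 (-0.358 to 0.675) in footprints, so the efficiency value mostly mirrors the RNA. The KO over WT efficiency ratio of Gss in replete medium was -0.95 (-1.30 to -0.59), just under 2-fold. Keap1 had 0.821 and 1.16 in KO leucine-free and KO replete cells, against 1.56 and 1.45 in WT leucine-free and WT replete cells. Its KO over WT log2 ratio was -0.92 (-1.26 to -0.58) in leucine-free and -0.32 (-0.55 to -0.09) in replete medium.

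Nfe2l2 had a translation efficiency of 1.58 and 1.69 in KO leucine-free and KO replete cells, against 2.06 and 2.13 in the WT libraries. Its KO over WT log2 ratios were -0.38 (-0.54 to -0.22) in leucine-free and -0.33 (-0.45 to -0.21) in replete medium. Gclm had 1.15 and 1.27 in KO leucine-free and KO replete cells, against 0.949 and 1.21 in the WT libraries. Txnrd1 had 1.26 and 1.16 in KO leucine-free and KO replete cells, against 1.25 and 1.09 in the WT libraries. Nqo1 had 1.62 and 1.66 in KO leucine-free and KO replete cells, against 1.46 and 2.54 in the WT libraries. Its KO over WT log2 ratio was 0.15 (-0.79 to 1.08) in leucine-free and -0.61 (-1.21 to -0.004) in replete medium. The log2 responses to leucine in Srxn1 were -0.69 (-1.24 to -0.15) in KO and -0.16 (-0.86 to 0.54) in WT cells.

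Other genes of cystine, cysteine and glutathione handling were listed by role, and 14 of 19 were measured in RNA-seq and 12 in footprints. The shares of all measured genes past 2-fold in either direction, for this list and those that follow, were in RNA 3.17% and 1.70% for leucine in KO and WT cells, and 8.38% and 6.86% for KO against WT in leucine-free and replete medium. In footprints the same comparisons gave 2.14%, 1.49%, 7.26% and 2.99%. Chac1, which degrades glutathione and is an ATF4-pathway gene, rose without leucine in WT cells, to 25.1 CPM of RNA against 4.66 CPM in replete medium. It had 3.74 CPM without leucine and 4.52 CPM with it in KO cells, so KO over WT in leucine-free medium was -2.75 (-3.04 to -2.47) in RNA and -3.08 (-3.73 to -2.52) in footprints. Cth, the lyase that makes cysteine from cystathionine, had 11.5 CPM in KO and 28.1 CPM in WT cells without leucine, a fall of RNA with a log2 ratio of -1.28 (-1.46 to -1.11). Cbs, the enzyme before it, held at most 6 reads in any library. Of the RNA list 1 gene was higher (Ggt7) and 2 lower past 2-fold for KO against WT in leucine-free medium, with a list median of -0.24 beside 0.01 over all genes. In replete medium 1 was higher (Ggt7) and 0 lower, with a median of -0.05, and Ggt7, a gamma-glutamyltransferase relative, had RNA counts of 52 and 44 in KO cells and 23 and 20 in WT cells.

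For leucine-free against replete medium 1 of the 14 rose in KO RNA, Ggct (1.01, 0.53 to 1.501), and 1 of 14 in WT RNA, Chac1 (2.43, 2.21 to 2.66). None fell. In footprints 0 of 12 passed in KO cells and 1 of 12, Chac1, in WT cells (2.89, 2.48 to 3.34). Chac1 was also the 1 of 12 past 2-fold in footprints for KO against WT in leucine-free medium, and 0 of 12 passed in replete medium. The selenoprotein Gpx4, which uses glutathione to reduce lipid peroxides, had 50.5 and 52.2 footprint CPM in KO leucine-free and KO replete cells, against 50.1 and 54.8 in the WT libraries.

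Of 27 other NRF2 targets 22 were measured in RNA-seq and 21 in footprints. Their median RNA log2 ratio was 0.13 for leucine in KO and 0.27 for leucine in WT cells, and 0.06 and 0.14 for KO over WT in leucine-free and replete medium, beside -0.003, 0.005, 0.01 and 0.00 over all genes. For KO against WT RNA 2 rose and 0 fell in leucine-free medium (Osgin1, Ftl1), and 1 rose (Osgin1) and 1 fell (Cbr1) in replete medium. The ferritin chains Fth1 and Ftl1 have near-identical copies elsewhere in the genome, so their counts are uncertain. Osgin1, an oxidative stress-induced growth inhibitor, had RNA counts of only 53 and 53 in KO leucine-free and KO replete cells, against 17 and 8 in the WT libraries. Its footprint counts were 128 and 39 in KO leucine-free and KO replete cells, against 19 and 41 in the WT libraries, so its footprints rose without leucine in KO cells with a log2 ratio of 2.28 (1.77 to 2.86). Cbr1, a carbonyl reductase, had RNA counts of 63 and 33 in KO leucine-free and KO replete cells, against 76 and 84 in the WT libraries.

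Leucine-free medium was accompanied by a rise past 2-fold of 3 of the 22 NRF2 targets in KO RNA (Ftl1, Cbr1 and Blvrb), beside 3.17% of all genes in either direction, and of 1 of 22 in WT RNA (Blvrb), beside 1.70%, with 0 lower. Blvrb, a biliverdin reductase, had 4.35 and 1.93 CPM in KO leucine-free and KO replete cells, against 3.41 and 1.69 CPM in the WT libraries. In footprints 1 of 21 rose (Osgin1) and 1 fell (Trim16) in KO cells, and 1 fell (Fth1) in WT cells. For KO against WT footprints in leucine-free medium 2 rose (Fth1 and Osgin1) and 2 fell (Ephx1, at -1.38, and Cbr1, at -1.15), and in replete medium none passed. Gsr, glutathione reductase, had RNA log2 ratios of KO over WT of 0.62 (0.58 to 0.66) in leucine-free and 0.59 (0.56 to 0.63) in replete medium, under 2-fold.

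All 16 listed NRF2 regulators were measured in both assays. In RNA 0 of 16 passed 2-fold for leucine in either genotype and 0 of 16 for KO against WT in replete medium, and Maff was the 1 past 2-fold in leucine-free medium. Maff, a small MAF partner of NRF2, had 39.1 and 21.9 CPM in KO leucine-free and KO replete cells, against 13.1 and 12.1 CPM in WT leucine-free and WT replete cells, and its KO over WT log2 ratio was 1.58 (1.44 to 1.73) without leucine. In footprints Bach2 was the 1 of 16 past 2-fold, at 1.16 (0.39 to 2.03) for KO over WT in leucine-free medium on counts of 69 and 17. Bach1, the repressor of Hmox1, had RNA levels of 101 and 92.1 CPM in KO leucine-free and KO replete cells, against 78.9 and 93.1 CPM in the WT libraries. Sqstm1, whose product p62 sequesters KEAP1, had RNA log2 ratios of leucine-free over replete medium of 0.36 (0.31 to 0.42) in KO and 0.51 (0.46 to 0.56) in WT cells.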

How the data were processed

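RNA-seq and ribosome footprint libraries of Gcn2 KO and WT KRPC-A cells were analysed, 8 libraries in 8 groups of 1. The deposited count tables hold unnormalised reads for each gene, made by the authors with featureCounts 1.6.4 on exons of Ensembl 96 gene models, per the file headers. The submitters' processing notes name cutadapt, STAR, Subread and GRCm38. The recorded command uses default settings, without strand and without reads that map or overlap more than once, so reads from antisense partners cannot be told apart, shared reads are not counted, and reads in untranslated regions count.

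Symbols matched 55450 of 55536 identifiers (99.85%), and RefSeq on GRCm38.p6 gave the protein-coding class. Counts were scaled per assay by TMM factors from edgeR 4.0.16 (R 4.3.3), 0.989 to 1.01 in RNA-seq and 0.980 to 1.03 in footprints, over genes with a mean count of at least 30. Log2 ratios used a prior count of 0.5. Between a pair of libraries they carry exact conditional binomial intervals, translation efficiencies and differences of ratios carry Wald intervals, and CPM carry exact Poisson intervals, all at 95%. Only the intervals for ratios and differences of ratios within an assay were tested on simulated data. The simulated counts held counting error alone, as the intervals assume, so that test does not cover any other spread. With 1 library per group no p-value was computed, so the intervals do not include culture-to-culture spread. Python 3.11.15, numpy 2.4.6, pandas 2.3.3, scipy 1.17.1, statsmodels 0.14.6 and matplotlib 3.10.9 were used.

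The 10 genes and the companion lists were chosen with earlier results of these data known. Genes of those lists were named when past 2-fold, or, for Slc3a2, Cbs, Gpx4, Gsr, Bach1, Sqstm1 and Sesn2, for their role and after their values were seen. One result among the genes most like a member is not reported here. Alternatives were scaling by total counts or DESeq2 1.42.0 size factors, minimum mean counts of 100 or none, a prior count of 2, removal of a lowess trend (span 0.3) on exonic length, and a 1.5-fold threshold.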

Additional observations from a re-analysis of the deposited data

Results flagged for a closer look

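In 4 cases the leucine response had opposite signs in KO and WT cells, with intervals that excluded 0 in both genotypes. The share of all measured genes that meet this rule was not computed, so whether 4 is unusual cannot be said. Gclc RNA responded by -0.14 in KO and 0.12 in WT cells, a difference of -0.27 (-0.36 to -0.18). Gss RNA responded by -0.30 in KO and 0.73 in WT cells, a difference of -1.03 (-1.32 to -0.74). From the same 4 RNA-seq libraries, KO over WT Gss RNA was -0.82 in leucine-free and 0.21 in replete medium, which is the same difference read the other way. Hmox1 footprints responded by -0.62 in KO and 0.35 in WT cells, a difference of -0.97 (-1.44 to -0.51). The translation efficiency of Gss responded by 0.48 in KO and -0.71 in WT cells, a difference of 1.19 (0.60 to 1.78). The difference in Gss footprints was 0.158 (-0.358 to 0.675). The efficiency case is thus mostly the Gss RNA difference with its sign reversed, and not a separate result. With 1 library per group these differences were not tested against the spread between cultures, and the intervals cover counting error only.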

How the results depend on the processing

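No paired analysis was possible because each group is 1 library and the labels carry no replicate numbers. DESeq2 size factors, a minimum mean count of 100 or none, and a prior count of 2 kept all 15 counts of members past 2-fold; total counts and removal of the length trend each kept 14. With total counts 0 of 9 genes passed for KO against WT footprints in leucine-free medium. With the length trend removed 1 of 9 (Hmox1) passed for the difference of leucine responses in footprints. At 1.5-fold, RNA counts were 1 of 10 (Slc7a11) for leucine in KO cells (8.94% of all genes), 1 (Gss) in WT cells (6.55%), 1 (Gss) for KO against WT in leucine-free medium (21.5%) and 2 (Slc7a11 and Gss) for the difference (12.7%). Footprint counts at 1.5-fold were 1 of 9 (Hmox1) for leucine in KO cells (10.8%), 2 (Hmox1 and Keap1, 21.8%) and 1 (Gss, 11.8%) for KO against WT in leucine-free and replete medium, and 2 (Hmox1 and Keap1) for the difference (15.1%). Translation efficiency counts at 1.5-fold were 2 of 9 (Hmox1 and Srxn1, 15.9%) and 1 (Gss, 14.9%) for leucine in KO and WT cells, 1 (Keap1, 21.0%) and 2 (Nqo1 and Gss, 8.63%) for KO against WT in leucine-free and replete medium, and 2 (Keap1 and Gss) for the difference (21.9%). Without the length trend the leucine response of Hmox1 in WT RNA was 0.19, against 0.378 (0.203 to 0.555) with it. That of Txnrd1 was 0.03, against -0.04 with it. No scaling moved the median of all genes by more than 0.083. Depth limits Slc7a11, Nqo1 and Srxn1 footprints most, and the WT leucine-free footprint library is the shallowest.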

Other observations

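Among 16 genes of the thioredoxin system and other redox enzymes, all were measured in RNA-seq and 15 in footprints. Txnip, the thioredoxin-binding arrestin, rose without leucine in both genotypes and both assays. Its RNA was 31.4 and 12.6 CPM in KO leucine-free and KO replete cells, against 47.7 and 22.5 CPM in WT leucine-free and WT replete cells. The log2 response was 1.32 (1.16 to 1.48) in KO and 1.08 (0.97 to 1.20) in WT RNA, and 1.27 (0.83 to 1.74) in KO and 1.43 (1.12 to 1.74) in WT footprints. Txnip footprints fell in KO relative to WT cells in both media, by 1.31 in leucine-free and by 1.16 in replete medium on the log2 scale. No other gene of the list passed 2-fold in RNA or footprints in these 4 comparisons. The list median for leucine in RNA was -0.03 in KO and 0.24 in WT cells, beside -0.003 and 0.005 over all measured genes. Of the 16 genes 14 had a KO minus WT difference of leucine responses in RNA below 0, where the median over all measured genes was 0.004. The interval lay below 0 for 10 of the 16 and above 0 for 2. Among all measured genes 49.4% lay below 0.001, the value of Keap1. This list was chosen with earlier results of these data known. Sesn2, a sestrin that binds leucine, had 19.9 and 23.0 CPM of RNA in KO leucine-free and KO replete cells, against 29.4 and 21.4 CPM in the WT libraries.

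Beside Hmox1, 5 genes of haem handling were measured in RNA-seq and 4 in footprints. Slc40a1, the iron exporter ferroportin, rose in KO relative to WT RNA in both media. It had 32.8 and 44.9 CPM in KO leucine-free and KO replete cells, against 13.4 and 16.9 CPM in WT leucine-free and WT replete cells, with log2 ratios of 1.29 (1.14 to 1.44) and 1.41 (1.28 to 1.54). Its footprints were below the minimum count, at 19 and 13 in KO leucine-free and KO replete cells and 0 and 3 in the WT libraries. None of the other 4 genes passed 2-fold in either genotype or medium. The RNA of all 5 had a leucine response below 0 in KO cells, with a median of -0.23, and the interval excluded 0 for 3 of them. In WT cells 3 of 5 had one above 0, with a median of 0.11. There the interval lay above 0 for 2 genes and below 0 for 2. Among all measured genes 48.9% had a KO leucine response in RNA below -0.009, so a value below 0 was common. The medians over all measured genes were -0.003 in KO and 0.005 in WT cells.

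In translation efficiency Txn1, thioredoxin, was 1 of 5 of the 21 measured other NRF2 targets whose leucine response differed between the genotypes past 2-fold, beside 7.88% of all measured genes. Its KO minus WT difference was 1.07 (0.92 to 1.23). Its RNA was 47.6 and 51.6 CPM in KO leucine-free and KO replete cells, against 57.0 and 40.3 CPM in the WT libraries, and its footprints were 1352 and 1170 CPM in KO leucine-free and KO replete cells, against 1187 and 1408 CPM in the WT libraries. The pattern has the same signs as that of Gss, with a KO response of 0.32 and a WT response of -0.75. The other 4 were Fth1 and Osgin1, higher, and Cbr1 and Trim16, lower. Aifm2 of the redox list was higher in the same comparison (1.10, 0.12 to 2.08). For leucine, the efficiency of Osgin1 rose and that of Cbr1, Blvrb, Trim16 and Ggct fell in KO cells, and that of Fth1 and Ggct fell in WT cells, beside 3.00% and 2.90% of all genes past 2-fold in KO and WT cells. For KO against WT, Fth1 and Chac2 were higher and Cbr1 lower in leucine-free medium, and Cbr1 and Bach2 were higher and Osgin1 lower in replete medium, beside 5.91% and 1.38% of all genes. The KO minus WT difference of leucine responses passed 2-fold in RNA for Ftl1 and Cbr1, higher, and Chac1, lower, beside 4.66% of all genes. In footprints, where 4.68% of all genes passed, it did so for Fth1 and Osgin1, higher, and Ephx1, Cbr1, Trim16 and Chac1, lower.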
